A study of Canis lupus with 20 samples.

Results

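The genes HPGDS, HSD17B13, ETNPPL, CRYM and DKK3 were followed in heart tissue of dogs. They were chosen by name because earlier work on these same arrays had shown them far higher in the left atrium than in the left ventricle, so the chamber levels that selected them are given here as a description and carry no test. The 5 genes have 12 probe sets that the annotation pairs with 1 gene symbol, of 42924 probe sets without controls on the array. All 12 lay above the filter on dim probe sets, which kept 30047 probe sets and 11423 genes. A further probe set of ETNPPL also carries the symbol of COL25A1 and was not used. No threshold was involved in the choice. By the atrium minus ventricle difference among 11423 genes, HSD17B13 ranked 2 in uninephrectomized and 2 in sham dogs, CRYM 3 and 3, HPGDS 4 and 5, ETNPPL 8 and 6, and DKK3 24 and 15. The ranks of the 4 enzymes rest in part on ventricular signals near background.

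The arrays fall into 4 groups of 5, namely left atrium of dogs with the right kidney removed (uninephrectomy, UNX), left atrium of sham-operated dogs, left ventricle of UNX dogs and left ventricle of sham-operated dogs. All tissue was taken 12 weeks after the operation, and 6 normal dogs had been assigned to each operation. The labels give no age, breed or allele, and the sham operation is the only treatment of the controls. Heart tissue was not sorted into cell types, so fewer cells of a type and less RNA per cell cannot be told apart.

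HPGDS, the hematopoietic prostaglandin D synthase, turns prostaglandin H2 into prostaglandin D2 with glutathione as its cofactor, and by sequence it is a member of the glutathione transferase superfamily. HSD17B13 is a short-chain dehydrogenase on lipid droplets, best known from liver, where it acts on retinol and other lipid substrates. ETNPPL is the phospholyase that breaks down phosphoethanolamine, the head group precursor of phosphatidylethanolamine, and is known from liver and astrocytes. CRYM, mu-crystallin, binds thyroid hormone in the cytosol and is also the ketimine reductase of the pipecolate branch of lysine breakdown. DKK3 is a secreted glycoprotein of the dickkopf family, whose member DKK1 blocks Wnt signals at the co-receptors LRP5 and LRP6.

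Values are the log2 signals as deposited, which ran between 0.43 and 15.0, with array medians between 2.33 and 2.39. The probe set with the highest mean over all arrays is called the lead probe set of a gene. Signals below 3 are called dim here, since genes that are off crowd there. Chamber markers fitted the tissue labels. MYL7, the atrial regulatory light chain, averaged 14.24 ± 0.06 in UNX atrium, 14.33 ± 0.10 in sham atrium, 11.80 ± 0.20 in UNX ventricle and 12.31 ± 0.37 in sham ventricle (SD, n = 5 each), and IRX5, a ventricular transcription factor, lay between 0.62 and 1.29 on all atrial arrays and between 4.99 and 7.36 on all ventricular ones.

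HPGDS was bright on all 10 atrial arrays and dim on most ventricular ones. Its lead probe set read 9.59, 9.83, 9.96, 10.24 and 10.17 on UNX atrial arrays 1 to 5. In sham atrium it read 9.57, 10.14, 8.56, 9.77 and 9.92. In UNX ventricle the values were 3.15, 2.05, 4.36, 2.48 and 2.52, and in sham ventricle 2.64, 2.17, 5.36, 2.70 and 2.25. Atrial and ventricular arrays did not overlap, but UNX ventricular array 3 and sham ventricular array 3 stood above the rest of their groups. The means were 9.96 ± 0.26 in UNX atrium, 9.59 ± 0.61 in sham atrium, 2.91 ± 0.90 in UNX ventricle and 3.02 ± 1.33 in sham ventricle. The atrium minus ventricle difference as measured was 7.04 in UNX and 6.57 in sham dogs. Of the ventricular values 7 of 10 were dim, and with signals under 3 set to 3 the atrium was higher by 6.66 in UNX and 6.12 in sham dogs, or at least 101-fold and 69.5-fold. The second HPGDS probe set was dim on all 20 arrays (between 1.91 and 2.71), and its atrial and ventricular values overlapped in sham dogs.

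HSD17B13 was bright in the atrium, with the widest spread among atria of the 5 genes, and dim on every ventricular array. The lead probe set read 10.43, 7.32, 11.65, 10.02 and 11.15 in UNX atrium. The sham atrial values were 11.30, 11.56, 9.09, 10.76 and 11.02. UNX atrial array 2 was thus lowest, with sham atrial array 3 next. All 10 ventricular values were dim, between 1.39 and 2.40 in UNX dogs and between 1.53 and 2.63 in sham dogs. The means were 10.11 ± 1.68 in UNX atrium, 10.75 ± 0.98 in sham atrium, 1.88 ± 0.44 in UNX ventricle and 2.23 ± 0.42 in sham ventricle. The difference as measured was 8.24 in UNX and 8.52 in sham dogs. With signals under 3 set to 3 it was 7.11 in UNX and 7.75 in sham dogs, or at least 139-fold and 215-fold.

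Of the 5 HSD17B13 probe sets, 4 had atrial values wholly above the ventricular values in both operations, a description of a gene chosen on chamber levels. The fifth was dim nearly throughout, reached 3.38 on one sham atrial array and overlapped between chambers in UNX dogs. The 5 probe sets followed each other across the 10 atrial arrays once group means were removed, with pairwise Pearson correlations between 0.79 and 0.996, given as a description because the probe sets share their RNA. On UNX atrial array 2 all 5 probe sets were at their lowest of the 10 atrial arrays. The same RNA gave 9.83 for HPGDS, 14.23 for MYL7 and 9.19 for the atrial nuclear receptor NR2F1, values inside the range of the other UNX atria. Other atrial markers were the lowest of the UNX atria there, PAM at 13.52 (minimum) and NPPB at 9.81 (minimum). The atrial cardiomyocyte marker mean was also lowest, at 6.70. The ventricular gene MYL3 (8.85) and the ventricular cardiomyocyte marker mean (5.27) were the highest of the UNX atria. The mean of the fibroblast marker list was 7.93 on that array, against 6.97 to 7.31 on the other UNX atrial arrays, and POSTN, a matricellular gene of activated fibroblasts, was at 8.85, against 2.18 to 4.79. The adipocyte marker mean was 5.52 there, against 6.16 to 6.66, with ADIPOQ at 3.10, against 5.44 to 6.60, and the macrophage and monocyte mean was 4.15, against 3.77 to 3.91. The part of these in the HSD17B13 level was not tested.

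**Figure D1:**
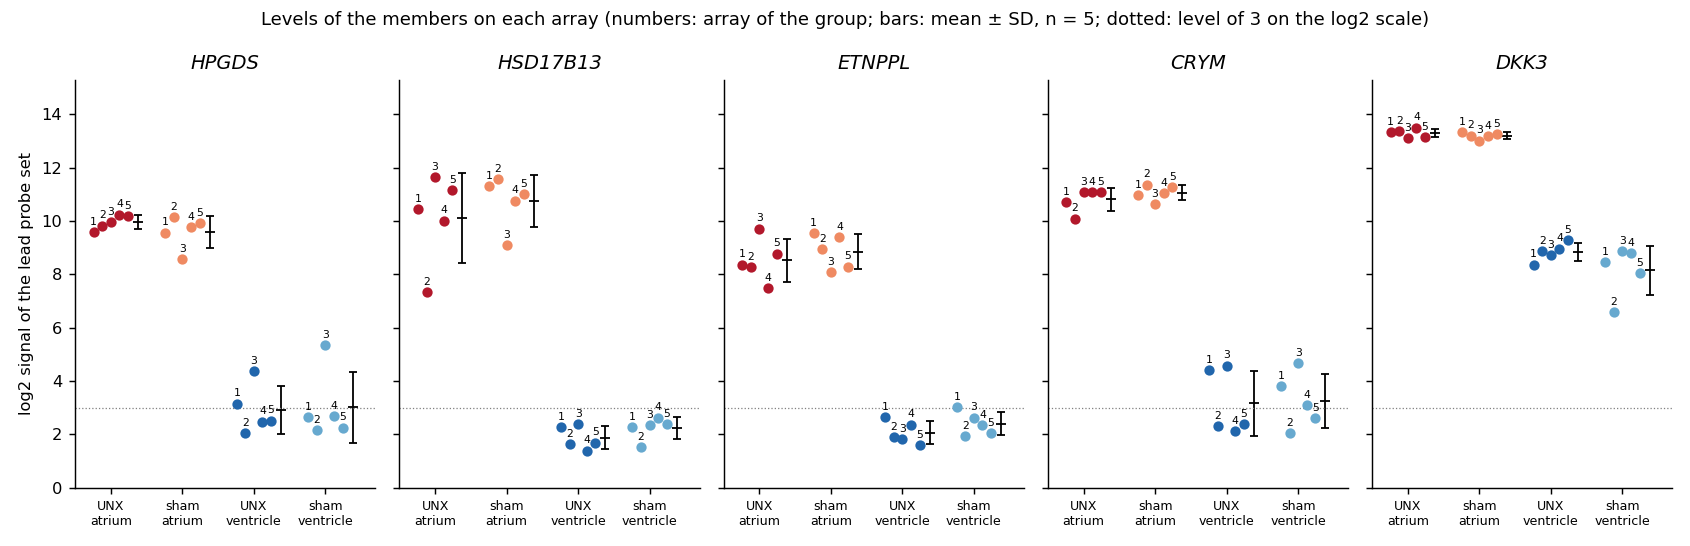
Log2 signal of the lead probe set of each gene on each of the 20 arrays (points, numbered by array), with group mean ± SD (n = 5) beside them and a dotted line at 3. The 5 genes were chosen on chamber levels, so that their atrial and ventricular arrays do not overlap is a description. The share of all genes without overlap was not counted. HSD17B13 on UNX atrial array 2 (7.32) is the lowest atrial value of that gene.

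**Figure D2:**
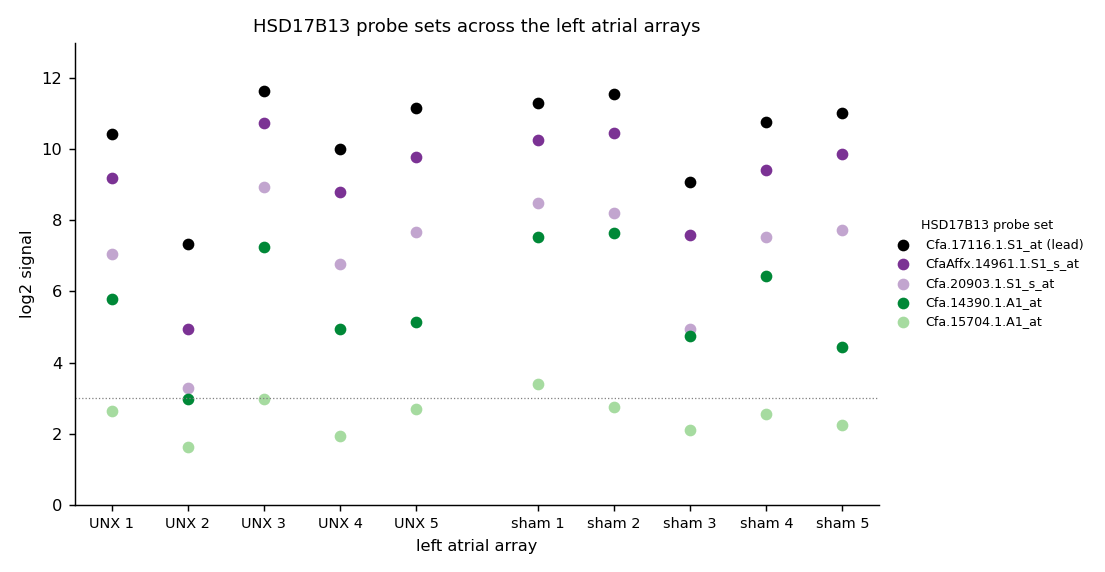
Log2 signal of the 5 HSD17B13 probe sets (colours) on the 5 UNX and 5 sham left atrial arrays, with a dotted line at 3. All 5 probe sets are lowest on UNX array 2, and the 3 brightest are second lowest on sham array 3.

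ETNPPL was measured by 1 probe set. It read 8.36, 8.28, 9.71, 7.48 and 8.78 in UNX atrium and 9.56, 8.94, 8.09, 9.41 and 8.30 in sham atrium. The ventricular values were 2.66, 1.90, 1.81, 2.37 and 1.61 in UNX dogs and 3.04, 1.95, 2.63, 2.34 and 2.06 in sham dogs. All ventricular values but 3.04 were dim, and the UNX and sham ranges overlapped in both chambers. The means were 8.52 ± 0.82 in UNX atrium, 8.86 ± 0.65 in sham atrium, 2.07 ± 0.43 in UNX ventricle and 2.40 ± 0.44 in sham ventricle. The chamber difference as measured was 6.46 in UNX and 6.46 in sham dogs. With signals under 3 set to 3 it was 5.52 in UNX and 5.85 in sham dogs, or at least 46.0-fold and 57.7-fold.

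CRYM varied little among atria. The lead probe set read 10.71, 10.09, 11.08, 11.07 and 11.10 in UNX atrium and 10.98, 11.37, 10.64, 11.06 and 11.26 in sham atrium. UNX atrial array 2, the one lowest for HSD17B13, was also lowest for CRYM. In the ventricle CRYM read 4.42, 2.32, 4.58, 2.12 and 2.40 in UNX dogs and 3.80, 2.06, 4.67, 3.11 and 2.62 in sham dogs. The means were 10.81 ± 0.43 in UNX atrium, 11.06 ± 0.28 in sham atrium, 3.17 ± 1.22 in UNX ventricle and 3.25 ± 1.02 in sham ventricle. The difference as measured was 7.64 in UNX and 7.81 in sham dogs. Of the ventricular values 5 of 10 were dim, and with signals under 3 set to 3 the difference was 7.21 in UNX and 7.55 in sham dogs, or at least 148-fold and 187-fold. The second CRYM probe set gave chamber differences of 6.26 in UNX and 6.33 in sham dogs and followed the first across the 10 atrial arrays (Pearson r = 0.985, a description).

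DKK3 differed from the 4 enzymes in that its lead probe set was well above the dim range in the ventricle as well. It read 13.34, 13.38, 13.12, 13.51 and 13.16 in UNX atrium and 13.34, 13.21, 13.02, 13.20 and 13.26 in sham atrium. In the ventricle it read 8.37, 8.89, 8.73, 8.97 and 9.30 in UNX dogs and 8.45, 6.59, 8.87, 8.79 and 8.04 in sham dogs. The atria differed little from each other, while sham ventricular array 2 stood below all other ventricular arrays. The means were 13.30 ± 0.16 in UNX atrium, 13.20 ± 0.12 in sham atrium, 8.85 ± 0.34 in UNX ventricle and 8.15 ± 0.93 in sham ventricle. The difference between chambers was 4.45 in UNX dogs (21.9-fold) and 5.06 in sham dogs (33.3-fold). The second DKK3 probe set averaged 7.35 ± 1.00 in UNX atrium, 6.62 ± 1.03 in sham atrium, 2.89 ± 0.36 in UNX ventricle and 2.93 ± 0.50 in sham ventricle, and it followed the first across the atria only weakly (Pearson r = 0.235, a description).

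The question of the operation was whether loss of a kidney shifts these genes in either chamber. The operation was not used to choose the genes, so it was tested, with limma across all 30047 probe sets. None of the 12 probe sets was called in the atrium, in the ventricle or for the difference of the effects, at an adjusted p under 0.05. Over all probe sets 0 of 30047 were called in each of these comparisons (0%), with 2010, 2005 and 893 at an unadjusted p under 0.05 in the atrium, in the ventricle and for the difference. The members' count of 0 is therefore the same as the background.

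In the atrium the UNX minus sham difference of HPGDS was 0.37 ± 0.51 (SE, limma adjusted p = 0.923) and that of CRYM -0.25 ± 0.49 (adjusted p = 0.947). ETNPPL differed by -0.33 ± 0.36 (limma adjusted p = 0.887) and DKK3 by 0.10 ± 0.30 (adjusted p = 0.972). The second DKK3 probe set differed by 0.74 ± 0.46 (limma adjusted p = 0.792). The 95% interval for the lead probe set of DKK3, between -0.53 and 0.72, was the narrowest of the 5. Each SE comes from 1 spread per gene shared by all 4 groups, so atrial intervals carry ventricular spread. For DKK3 the atrial SDs (0.16 and 0.12) were below the ventricular ones (0.34 and 0.93), which widens its atrial interval. For HSD17B13 they were above (1.68 and 0.98, against 0.44 and 0.42), which makes its atrial interval too narrow. HSD17B13 differed by -0.63 ± 0.60, with a 95% interval between -1.89 and 0.62 (limma adjusted p = 0.867), and without UNX atrial array 2 the difference was 0.06, so its sign rested on that array. The UNX and sham atrial arrays overlapped for all 5 genes.

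In the ventricle the differences were -0.11 ± 0.51 for HPGDS, -0.35 ± 0.60 for HSD17B13, -0.33 ± 0.36 for ETNPPL and -0.08 ± 0.49 for CRYM (SE, limma adjusted p between 0.883 and 0.988). HPGDS was dim on 7, HSD17B13 on 10, ETNPPL on 9 and CRYM on 5 of the 10 ventricular arrays, and between dim signals a log2 difference is compressed or depends on how background was handled. The UNX minus sham difference of DKK3 was 0.70 ± 0.30, with a 95% interval between 0.08 and 1.33 (limma unadjusted p = 0.0300, adjusted p = 0.711), and an exact permutation test of the lead probe set gave p = 0.119, with 0.0079 the smallest possible. The ventricular SDs of DKK3, 0.34 in UNX and 0.93 in sham dogs, exceeded its atrial ones, so the shared spread makes its ventricular interval too narrow. Without sham ventricular array 2 the DKK3 difference was 0.31, and the second DKK3 probe set differed by -0.04 ± 0.46. The 3' gap, by which the 3' control probe sets of ACTB, GAPDH and EEF1A1 exceed those nearer the 5' end, rises as RNA degrades. It was 1.04 ± 0.15 in UNX ventricle and 1.29 ± 0.26 in sham ventricle (exact permutation p = 0.0873). With the gap as a covariate the DKK3 difference was 0.88.

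The effect in the atrium minus that in the ventricle was 0.48 ± 0.72 for HPGDS, -0.28 ± 0.85 for HSD17B13, 0.00 ± 0.51 for ETNPPL, -0.17 ± 0.70 for CRYM and -0.61 ± 0.42 for DKK3 (SE, limma adjusted p above 0.99 for each). The sham chamber levels helped to choose the genes and also enter this difference. The second DKK3 probe set gave a value of the opposite sign, 0.78 ± 0.65 (SE, limma adjusted p above 0.99). All 5 intervals of the lead probe sets contained 0. Those of the 4 enzymes reached beyond 1 on both sides, so a difference of that size could not be told from none.

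**Figure D3:**
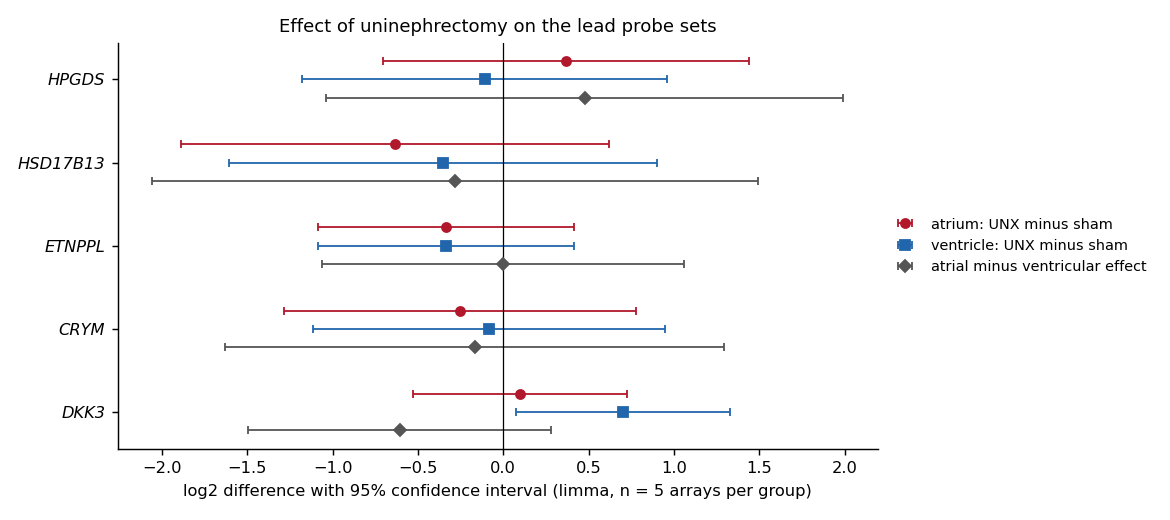
UNX minus sham difference of the lead probe sets in atrium (circles) and ventricle (squares), and the atrial minus the ventricular effect (diamonds), on the log2 scale with 95% confidence intervals from limma (n = 5 arrays per group). DKK3 in the ventricle (0.70) is the only estimate whose unadjusted interval leaves out 0. The intervals use 1 spread per gene shared by the 4 groups.

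Among ventricular arrays the lead probe sets of HPGDS and CRYM were high on the same ones. The second CRYM probe set did not share this on UNX ventricular arrays 3 and 1. It read 2.52 and 2.56 there, below the 2.78 of UNX ventricular array 2, and was highest on sham ventricular array 3, at 3.12. By the lead probe sets HPGDS was at 4.36 and 3.15 on UNX ventricular arrays 3 and 1 and at 5.36 on sham ventricular array 3. CRYM was at 4.58, 4.42 and 4.67 on these 3 arrays. GJA5, which encodes the gap junction protein connexin 40 of atrial muscle, the conduction system and arterial endothelium, was highest on the same 3 arrays, at 6.23, 6.08 and 7.38, against 3.00 to 5.70 on the other 7 ventricular arrays. MYL4, the atrial essential light chain, was at 10.30, 9.97 and 9.60 on them, but also reached 10.09 on sham ventricular array 4, where HPGDS was at 2.70. MYL4 ranged between 3.66 and 10.30 over the 10 ventricular arrays. NR2F1, in contrast, stayed between 1.91 and 2.67 on all of them. The atrial gene MYL7 was at 11.78, 11.70 and 12.16 on the 3 arrays, inside the 11.55 to 12.73 of the other 7. The atrial cardiomyocyte marker mean, which includes GJA5 and MYL4, was highest on them, at 4.58, 4.65 and 4.81, against 3.92 to 4.52. The endocardial marker mean was also highest there, at 4.99, 4.99 and 5.03, against 4.29 to 4.84. The ventricular gene IRX5 was at 7.08, 7.36 and 7.24 on them, against 4.99 to 7.28 on the other 7, so it was not low there. Sham ventricular array 3 also had the largest 3' gap of all arrays, 1.69. The part of these in the ventricular HPGDS and CRYM levels was not tested. HSD17B13 was dim on all 3 arrays, between 2.27 and 2.40, as was ETNPPL, between 1.81 and 2.66, and DKK3 lay between 8.37 and 8.87.

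**Figure D4:**
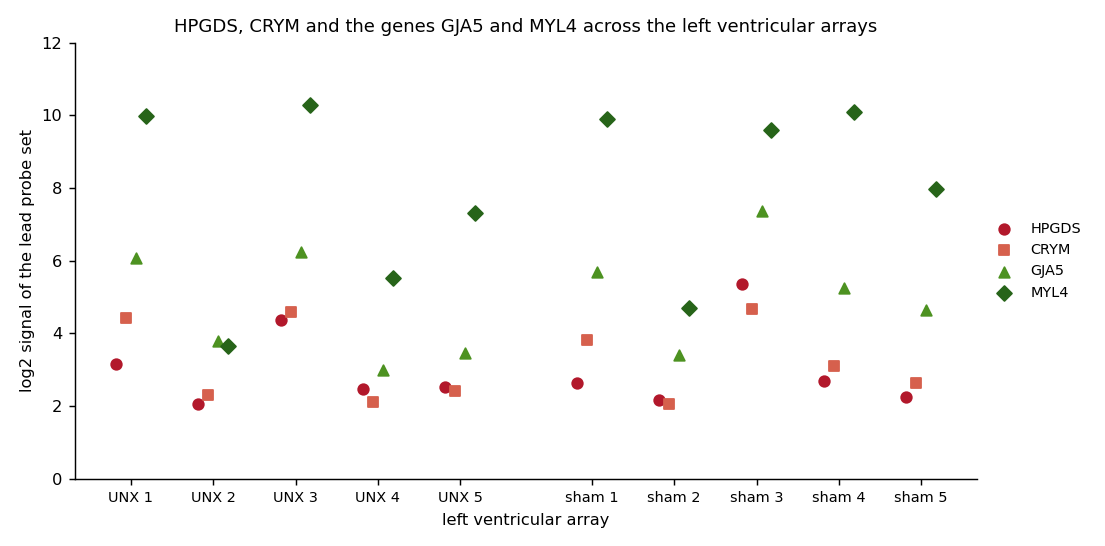
Log2 signal of the lead probe sets of HPGDS and CRYM (circles and squares) and of GJA5 and MYL4 (triangles and diamonds) on the 5 UNX and 5 sham left ventricular arrays. HPGDS and GJA5 are highest on sham array 3, at 5.36 and 7.38.

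Single arrays were also low for several members at once. Sham atrial array 3 was the lowest sham atrial array for 5 of 5 members, at 8.56 for HPGDS, 9.09 for HSD17B13, 8.09 for ETNPPL, 10.64 for CRYM and 13.02 for DKK3. The upper quartile of its signals, 5.27, was also the lowest of all atrial arrays, with the next sham atrial array at 5.36. The share of all genes that were lowest on that array was not counted. That array had NPPB, the B-type natriuretic peptide gene, at 5.41, against 8.29 to 11.86 on the other sham atrial arrays. Its atrial cardiomyocyte marker mean, which includes NPPB, was 6.47, against 6.80 to 6.99. Of other genes in that mean, MYL7 (14.32), MYL4 (14.36) and GJA5 (8.45) lay inside the range of the other sham atria. PAM (13.62, against 13.66 to 13.79), NR2F1 (8.98, against 9.12 to 9.63) and NR2F2 (5.51, against 5.73 to 6.62) were lowest. The adipocyte marker mean of the array was 7.60, against 5.52 to 6.71, with the adipocyte hormone ADIPOQ at 8.76. Sham ventricular array 2 was the lowest sham ventricular array for 5 of 5 members, again without a count over all genes. The enzymes were dim there, at 2.17 for HPGDS, 1.53 for HSD17B13, 1.95 for ETNPPL and 2.06 for CRYM. Their order thus ranks dim signals, while DKK3 was at 6.59. On that array MYL4 was at 4.69 and GJA5 at 3.41, the lowest of the sham ventricles. MYL7 was at 12.73 there, the highest of the 10 ventricular arrays, and IRX5 at 5.14, the lowest sham ventricular value. The part of these markers in the members' levels was not tested.

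Across the 10 atrial arrays, with the 2 group means removed, 10 pairs of members were compared for varying together. None of the 10 pairs passed after Benjamini-Hochberg adjustment. HSD17B13 and CRYM came nearest, with Pearson r = 0.901 and Spearman rho = 0.733 (exact permutation within groups, p = 0.0091, adjusted p = 0.0611), but r was 0.419 without the 2 arrays farthest from the median of HSD17B13, so in this setting the relation rested on those arrays. HPGDS and CRYM had r = 0.673 and rho = 0.818 (permutation p = 0.0122, adjusted p = 0.0611), and r was 0.695 without 2 arrays. With arrays shifted to the same median both pairs passed, each with a permutation adjusted p of 0.0472. With the 3' gap removed HSD17B13 and CRYM passed, with r = 0.952 and a permutation adjusted p of 0.0188, and r was 0.730 without the 2 arrays. By Spearman's rho this pair passed in none of the 3 settings (permutation adjusted p between 0.0986 and 0.129). DKK3 with each enzyme gave r between -0.35 and 0.39, and for 3 of these 4 pairs r was below 0.

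Likeness over all 20 arrays was measured as the root mean square distance between log2 values, each centred on the mean of its probe set, and is a description. The chamber difference, on which the members were chosen, enters this distance. Genes with a chamber difference of like size therefore come out near, whatever they do within a chamber. HPGDS and CRYM were each other's nearest gene among 11423, at a distance of 0.69. CRYM was also nearest to HSD17B13, at 0.93, followed by CTNNA2, a cadherin-linked catenin known from nerve cells, at 0.97. ETNPPL was nearest to NR2F1 at 0.51, then to the nuclear factor TOX at 0.57 and to TMEM178A at 0.70. NR2F1 was among the 3 nearest genes of each of the 4 enzymes. DKK3 had other neighbours, the potassium channel gene KCNA3 at 0.61, the kinase gene CAMK1D at 0.65 and FRZB at 0.67.

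The other genes of the members' pathways were taken from 9 lists that hold none of the 5 members. Of 228 listed genes 199 had a probe set and 141 were tested. In UNX dogs 23 were called higher in the atrium, where 16.2% of all genes were, and 25 lower, where 13.7% were. In sham dogs 17 were called higher, against 12% of all genes, and 22 lower, against 10.8%. Higher calls made up 16.3% of the 141 pathway genes in UNX and 12.1% in sham dogs, close to the background, and lower calls 17.7% and 15.6%, above it, with no set test made. The median chamber difference of the 141 genes was -0.03 in UNX and -0.04 in sham dogs, beside -0.02 and -0.01 over all genes. No pathway gene was called for the operation in either chamber, as for all probe sets.

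In the prostanoid list, 16 of 26 genes were tested, 5 were called higher and 3 lower in the atrium in UNX dogs, and the same numbers in sham dogs. PTGS2, the inducible cyclooxygenase that makes the substrate of HPGDS, was higher by 1.98 ± 0.41 in UNX (limma adjusted p = 0.0014) and by 1.26 ± 0.41 in sham dogs (adjusted p = 0.036). The sham call of PTGS2 was lost without sham atrial array 2 or 5 or sham ventricular array 1, 2 or 5. PTGS1, the constitutive enzyme, differed by 0.90 ± 0.36 and 0.95 ± 0.36 and was not called (adjusted p = 0.0704 and 0.0672), though it was called in sham dogs with their arrays paired (adjusted p = 0.0409). PTGDS, the lipocalin-type synthase that makes the same product as HPGDS, was not called in UNX dogs (0.03 ± 0.16, adjusted p = 0.907) and was higher by 0.47 ± 0.16 in sham dogs (limma adjusted p = 0.0414), a call that was kept in 5 of 16 alternative settings. PTGDR and PTGDR2, the receptors of prostaglandin D2, were dim in every group (means between 0.89 and 1.95), and their means over all arrays lay below the filter.

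PTGR1, a reductase that inactivates leukotrienes and prostaglandins, was higher in the atrium by 1.13 ± 0.26 in UNX and 0.80 ± 0.26 in sham dogs (limma adjusted p = 0.0032 and 0.0354), and its sham call was kept in 8 of 16 settings. PTGER4 and PTGER3 encode receptors of prostaglandin E2. PTGER4 was lower by 1.52 in UNX and 1.19 in sham dogs (log2, SE 0.18, limma adjusted p = 4.3e-06 and 7.9e-05). PTGER3 was lower in the atrium by 4.10 in UNX and 1.89 in sham dogs (SE 0.57, adjusted p = 3e-05 and 0.0228), with means of 1.68 in UNX atrium, 1.74 in sham atrium, 5.78 in UNX ventricle and 3.63 in sham ventricle. The sham call of PTGER3 was lost without sham ventricular array 3, 4 or 5. HPGD, the enzyme that inactivates prostaglandins, was dim in every group and not called.

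Of the glutathione transferases, 7 of 19 were tested. GSTA4, which detoxifies the lipid peroxidation product hydroxynonenal, was higher in the atrium by 0.99 ± 0.13 in UNX and 0.98 ± 0.13 in sham dogs (limma adjusted p = 1.1e-05 and 1.8e-05). MGST2 and GSTO1 were also called higher, by 0.64 and 0.36 in UNX dogs and by 0.76 and 0.38 in sham dogs. GSTK1 and MGST1 were called lower, by 0.47 and 0.72 in UNX and by 0.46 and 0.76 in sham dogs. The MGST1 call was lost without UNX atrial array 2 or UNX ventricular array 3 in UNX dogs and without sham atrial array 2 in sham dogs.

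HSD17B11, the closest relative of HSD17B13 and one of its neighbours on the chromosome, was called higher in the atrium by 1.65 ± 0.25 in UNX and 1.64 ± 0.25 in sham dogs (limma adjusted p = 7.8e-05 and 0.000105). Its means were 4.10 in UNX atrium, 4.05 in sham atrium, 2.46 in UNX ventricle and 2.40 in sham ventricle, so the ventricular values were dim. KLHL8, the nearest measured gene on the other side of HSD17B13, lay below the filter. HSD17B12, which elongates fatty acids, and HSD17B4, a peroxisomal enzyme of fatty acid oxidation, were bright in both chambers and not called. Among 23 tested hydroxysteroid and retinol dehydrogenases of 32 listed, 3 were called higher and 5 lower in UNX dogs, and 1 higher and 3 lower in sham dogs. DHRS4, a retinol and carbonyl reductase, was lower by 0.69 in UNX and 0.60 in sham dogs and DHRS7 by 0.37 and 0.49.

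The lipid droplet genes, the compartment where HSD17B13 resides, were called in both directions. Of 20 tested, 2 were called higher and 3 lower in UNX dogs, and 3 higher and 2 lower in sham dogs. CIDEA, a droplet fusion protein of fat cells, was higher by 2.73 ± 0.80 in UNX and 3.15 ± 0.80 in sham dogs (limma adjusted p = 0.0157 and 0.0083), and the UNX call was lost without the 3 ventricular arrays highest for GJA5. DGAT2, which makes triglyceride, was higher by 1.56 ± 0.44 in sham dogs (limma adjusted p = 0.0156), a call lost without sham atrial array 5, and differed by 1.18 in UNX dogs without a call. PLIN2, the droplet coat protein, was lower by 1.28 in UNX and 1.21 in sham dogs (limma adjusted p = 2.7e-07 and 6.5e-07). PNPLA2, the main triglyceride lipase, and PLIN5, the perilipin of oxidative tissues, were not called. The adipocyte marker list, which itself holds CIDEA and CIDEC, had 2 of 9 genes called higher in UNX and 4 of 9 in sham dogs. Over all genes the shares were 16.2% and 12%. CIDEA was among the called genes in both operations and CIDEC in sham dogs. Array means of this list lay between 5.52 and 6.66 in UNX atrium, 5.52 and 7.60 in sham atrium, 5.41 and 5.76 in UNX ventricle and 5.38 and 5.71 in sham ventricle. PLIN1 was dim on all arrays, and the part of fat tissue in these values was not tested.

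Around ETNPPL, 15 genes of phosphoethanolamine and phosphatidylethanolamine metabolism were tested, of which 1 was called higher and 4 lower in UNX dogs and 0 higher and 4 lower in sham dogs. PTDSS1, which makes phosphatidylserine from phosphatidylcholine, was lower in the atrium by 3.20 ± 0.50 in UNX and 2.38 ± 0.50 in sham dogs (limma adjusted p = 0.000109 and 0.0021). CHPT1, the last step of phosphatidylcholine synthesis, was lower by 0.49 and 0.51. ETNK1, which makes phosphoethanolamine, was not called, nor was PHYKPL, the related phospholyase that acts on phosphohydroxylysine (-0.14 in UNX and -0.17 in sham dogs). PCYT2, which uses phosphoethanolamine, was dim in every group and called lower, at -0.38 in UNX and -0.29 in sham dogs, the sham call being lost in 5 of 10 fits that left out 1 array.

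CRYM has a place in lysine breakdown and in thyroid hormone handling. Of 11 tested lysine genes, 1 was called higher and 1 lower in UNX dogs and 0 higher and 2 lower in sham dogs. GCDH, the glutaryl-CoA dehydrogenase, was lower in the atrium by 1.02 ± 0.19 in UNX and 0.83 ± 0.19 in sham dogs (limma adjusted p = 0.000457 and 0.0034). Of 15 tested thyroid hormone genes, 2 were called higher and 2 lower in UNX dogs, and 3 higher and 2 lower in sham dogs. RXRG, the gamma retinoid X receptor that pairs with thyroid hormone receptors, was lower by 2.51 ± 0.24 in UNX and 2.55 ± 0.24 in sham dogs (limma adjusted p = 3.4e-07 and 3.5e-07). In sham dogs KLF9 (0.70, limma adjusted p = 0.0368), NCOA1 (0.54, adjusted p = 0.0331) and SLCO1C1 were called higher. DIO2 was called lower (-0.22, limma adjusted p = 0.0434). The sham calls of KLF9, NCOA1 and DIO2 were kept in 8, 10 and 7 of 16 settings. In UNX dogs NCOA1 was called (0.61), and KLF9 and DIO2 were not. THRA, the main cardiac thyroid hormone receptor, had means between 7.99 and 8.19 and was not called, THRB was dim, and DIO3, the deiodinase that inactivates the hormone, lay below the filter.

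For DKK3, 11 of 20 genes of the dickkopf family, its receptors and other Wnt antagonists were tested, of which 3 were called higher and 1 lower in UNX dogs and 1 higher and 1 lower in sham dogs. FRZB, a secreted Wnt-binding antagonist, was higher in the atrium by 3.97 ± 0.19 in UNX and 4.23 ± 0.19 in sham dogs (limma adjusted p = 2.7e-11 and 1e-11), with means of 8.28, 8.11, 4.31 and 3.88 in UNX atrium, sham atrium, UNX ventricle and sham ventricle. LRP5 was lower by 0.53 and 0.51 (adjusted p = 0.0153 and 0.0236), the sham call being lost without sham atrial array 2 or sham ventricular array 5, while LRP6 and SFRP1 were not called. DKK1 and the receptor gene KREMEN1 had means over all arrays below the filter, and DKK2 was near the dim range and not called. Of 23 tested Wnt ligands, frizzleds and targets, 3 were called higher and 3 lower in UNX dogs and 1 higher and 3 lower in sham dogs. AXIN2, a target gene of canonical Wnt signals, was higher in the atrium of UNX dogs by 1.94 (limma adjusted p = 0.000463). In sham dogs it differed by 0.88 (adjusted p = 0.088), which was called with the sham arrays paired (adjusted p = 0.0466). LGR4, an R-spondin receptor, was lower by 1.44 in UNX and 1.18 in sham dogs.

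**Figure D5:**
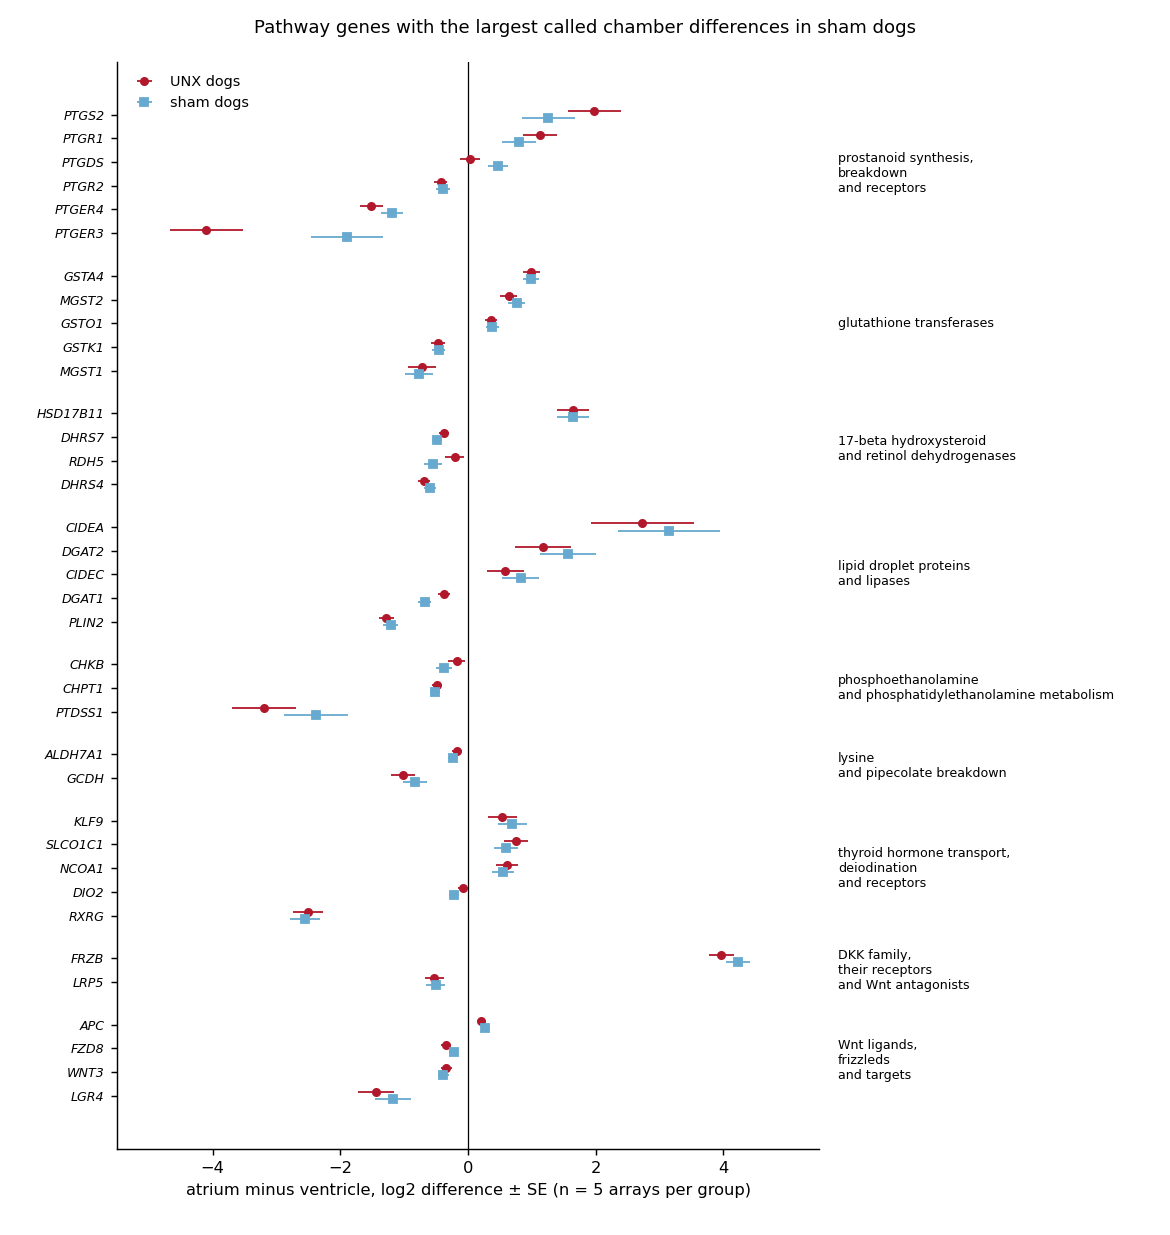
Atrium minus ventricle difference on the log2 scale, with its SE, in UNX dogs (circles) and sham dogs (squares), for up to 3 genes per direction of each pathway list with the largest called difference in sham dogs. FRZB (3.97 in UNX and 4.23 in sham dogs) lies farthest to the right. PTGER3 (-4.10) lies farthest to the left in UNX dogs and RXRG (-2.55) in sham dogs.

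The nearest measured genes on either side of the members in the RefSeq assembly mCanLup2.hap1, of a Mexican wolf, were used to see whether whole neighbourhoods differed between chambers. Beside HPGDS, the chromatin remodeler gene SMARCAD1 was higher in the atrium by 1.18 in UNX and 0.92 in sham dogs, while PDLIM5 on the other side was not called. Beside ETNPPL, neither OSTC nor COL25A1 was called. Beside CRYM, ZP2 was higher by 1.54 in UNX and 1.84 in sham dogs (limma adjusted p = 1.9e-06 and 2.6e-07) and on the other side UQCRC2, a subunit of respiratory complex III with 3 coding genes between, was lower by 0.35 and 0.30. Beside DKK3, MICAL2 was not called, although it was in sham dogs with their arrays paired (adjusted p = 0.0465), and GALNT18, which was dim and has 1 coding gene between, was called in sham dogs (0.43). The largest of these neighbour differences, 1.84 for ZP2 in sham dogs, stood beside 7.81 for CRYM.

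Markers of cell types in which members are known from other organs were dim in part. Mast cells are a known source of HPGDS. The mast cell genes KIT (2.07 to 2.99), CPA3 (1.68 to 2.89), FCER1A (1.36 to 2.38) and HDC (1.70 to 2.06) were dim on all 20 arrays, MS4A2 lay between 3.36 and 4.19, and SLC18A2, a vesicular monoamine transporter gene also used by nerve cells, had means between 7.69 and 7.98. Of the 8 mast cell genes with a probe set 6 were dim in all groups, and the mean of the list was between 2.88 and 3.14 in UNX atrium, 2.85 and 3.00 in sham atrium, 2.96 and 3.30 in UNX ventricle and 2.91 and 3.15 in sham ventricle. ALB, the albumin gene of hepatocytes, lay between 2.14 and 2.48, and 4 of 7 hepatocyte genes were dim in all groups, with none called. Of 6 astrocyte genes 3 were dim in all groups, GFAP (1.83 to 2.31) and AQP4 (1.39 to 1.67) among them. The glutamate transporter gene SLC1A3 was called higher in the atrium by 2.11 in UNX and 1.54 in sham dogs, SLC1A2 lower by 2.61 and 3.02, and ALDH1L1 had means between 6.92 and 7.29 and was not called. Of 7 mesothelial and epicardial genes 6 were dim in all groups, WT1 and UPK3B among them. The other one, KRT18, averaged 4.39 ± 1.99 in UNX atrium, 4.29 ± 1.76 in sham atrium, 2.29 ± 0.16 in UNX ventricle and 2.22 ± 0.22 in sham ventricle (SD, n = 5 each) and was not called (limma adjusted p = 0.0534 in UNX and 0.0695 in sham dogs). Fibroblast markers were called higher in the atrium for 7 of 12 genes in UNX and 6 of 12 in sham dogs, against 16.2% and 12% of all genes. Their array means lay between 6.97 and 7.93 in UNX atrium, 6.55 and 7.23 in sham atrium, 5.97 and 6.40 in UNX ventricle and 6.04 and 6.34 in sham ventricle. Of 6 endocardial genes 3 were called higher and 1 lower in UNX dogs, and 2 higher and 1 lower in sham dogs. Of 10 smooth muscle and pericyte genes 4 were called higher and 4 lower in UNX dogs, and 3 higher and 0 lower in sham dogs. The part of fibroblasts in the levels of DKK3 or of the other members was not tested.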

How the data were processed

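Total RNA (100 ng per sample, per the labels' protocols) was hybridised to 20 Affymetrix canine arrays, 1 per tissue sample. The deposited values are log2 signals. The authors' summarization, background correction and normalization are not given in the sources. Differences of dim probe sets may therefore be compressed. Scan files were not used here, and the number of arrays limits the precision.

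The array holds 43035 probe sets, from which 111 controls and the lowest 30% by mean (under 1.87) were removed before testing. By the supplied annotation 29264 probe sets have 1 symbol and 439 several. The tests were two-sided limma tests (version 3.58.1, R 4.3.3, lmFit with eBayes) from 1 fit of 4 group means with 16 residual degrees of freedom. An adjusted p under 0.05 (Benjamini-Hochberg over the 30047 tested) made a call. Genes were counted by their lead probe set. Lead probe sets of the members were also compared between operations by exact permutation over 252 assignments, and pairs of members over 14400 permutations within groups. The fit was tested on simulated data.

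The members and lists were chosen with earlier results of these data known. The genes named were drawn from all probe sets of the members, up to 3 called genes per direction of each list by the sham chamber difference, a list of pathway genes always given, the 3 genes most alike to each member, the nearest measured genes on either side, and chamber markers. Not every gene drawn in this way is named in the text. GJA5, POSTN, IRX5, ADIPOQ and other cell type markers were picked after their values were seen.

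Groups came from the labels. Whether equal replicate numbers pair atrial and ventricular arrays was checked from deviations from the group means. In sham dogs the same-numbered correlations were 0.463, 0.226, 0.373, 0.295 and 0.209, all above 0.1, so these pairs come from the data. In UNX dogs they ranged between -0.24 and 0.11 and gave no pairs by number. The highest correlation of UNX atrial arrays 1 to 5 with a ventricular array of another number was 0.437, 0.323, 0.167, 0.536 and 0.298. In sham dogs this value lay between -0.014 and 0.090. Whether UNX arrays of different numbers come from the same dog was not tested, and the main fit treated all arrays as unpaired. UNX and sham arrays come from different dogs, and p-values measure the spread between these samples. Alternatives covered filters, scaling, array weights, the 3' gap as a covariate, the replicate block, the fit and single arrays left out.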

Additional observations from a re-analysis of the deposited data

Results flagged for a closer look

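For each of the 12 probe sets the highest or lowest array of each of the 4 groups was set against the others, 48 groups in all, and an array far from the rest stood out in 2 of them. Chance gives about 1 such array in 20 groups. HPGDS on sham ventricular array 3 was at 5.36, with the next highest sham ventricular array at 2.70. The third brightest HSD17B13 probe set on sham atrial array 3 was at 4.96, with the next lowest sham atrial array at 7.52. The same 2 arrays had the highest ventricular GJA5 and the lowest atrial NPPB, and the part of these in the 2 values was not tested.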

How the results depend on the processing

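No lead probe set of a member was called for the operation in any alternative, and the adjusted p of the lead probe sets ranged between 0.535 and 1.00 in the ventricle and between 0.729 and 1.00 in the atrium. The difference of the effects for ETNPPL, -0.0006 in the fit of all arrays, was 0.0078 with arrays shifted to the same median, 0.20 with the 3' gap as a covariate and 0.052 without the 3 ventricular arrays highest for GJA5, an alternative chosen after seeing the data, in which that of CRYM was 0.37. In the ventricle HPGDS was at 0.097 and CRYM at 0.041 with array weights, and at 0.21 and 0.091 with the 3' gap as a covariate, and CRYM was at 0.084 with values under 3 set to 3. With the mean of all probe sets the difference of the DKK3 effects was 0.084, and the chamber difference was 3.73 in UNX and 3.44 in sham dogs for HPGDS, 4.63 and 5.15 for HSD17B13, and 4.37 in sham dogs for DKK3, where dim probe sets enter the mean. With values under 3 set to 3 the chamber difference was 5.52 in UNX and 5.85 in sham dogs for ETNPPL and 7.75 in sham dogs for HSD17B13. The members' pairs that passed numbered 2 after shifting the arrays to a common median and 1 with the 3' gap removed. Beyond the effects of construction named here, the cause was not tested.

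With each array left out in turn, the atrial effect for HSD17B13 ranged between -1.05 and 0.064, positive only without UNX atrial array 2. The ventricular effect ranged between -0.47 and 0.47 for HPGDS and between -0.44 and 0.27 for CRYM. The difference of effects ranged between -0.11 and 0.84 for HPGDS, -0.69 and 0.42 for HSD17B13, -0.30 and 0.26 for ETNPPL and -0.52 and 0.18 for CRYM. All these estimates were uncalled, so their sign carries no weight. Probe sets called for the operation numbered 0 to 1 in the atrium (1 without sham atrial array 5) and 0 to 4 in the ventricle (4 without sham ventricular array 1). Pathway genes called higher in the atrium of sham dogs numbered 11 to 18, with 11 without sham atrial array 2 or 5 or sham ventricular array 1 or 5.

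Uncalled chamber differences near 0 changed sign for some genes. With quantile normalization PTGDS was at -0.047 and ETNK1 at -0.10 in UNX dogs and HSD17B12 at -0.00034 in sham dogs. Without the 3 ventricular arrays PLIN5 was at 0.012 and THRB at -0.0042 in UNX dogs, and HPGD at -0.037 and LRP6 at 0.026 in sham dogs. Leaving out single arrays gave ranges between -0.047 and 0.13 for PTGDS, -0.067 and 0.012 for HPGD and -0.091 and 0.16 for ETNK1 in UNX dogs. In sham dogs they were -0.037 and 0.094 for HPGD, -0.038 and 0.097 for HSD17B12, -0.082 and 0.020 for HSD17B4, -0.030 and 0.056 for ETNK2, -0.25 and 0.038 for LRP6 and -0.023 and 0.17 for COL25A1. Of the named pathway, neighbour and marker genes, 33 of 40 calls in UNX and 32 of 48 in sham dogs held in every alternative.

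The replicate block by operation and number (consensus correlation 0.093) left every member uncalled and changed no call of theirs, with a limma adjusted p of 0.716 for DKK3 in the ventricle. In UNX dogs this block joined arrays of equal number, which the correlations did not pair. It gave 25 and 27 pathway genes called higher and lower in UNX dogs and 19 and 22 in sham dogs. Blocking the sham pairs alone, chosen after seeing the data, gave 23 and 28 in sham dogs.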

Other observations

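A few pathway genes outside the naming rule, picked after their values were seen, also had high atrial levels. WIF1, a secreted Wnt inhibitor, averaged 5.47 ± 2.61 in UNX atrium, 3.77 ± 1.00 in sham atrium, 2.66 ± 0.12 in UNX ventricle and 2.40 ± 0.20 in sham ventricle (SD, n = 5 each), and was called higher in the atrium of UNX dogs (limma adjusted p = 0.0158) but not of sham dogs (adjusted p = 0.27). SFRP4, a secreted frizzled-related protein, was called in UNX dogs with a log2 difference of 2.29 (limma adjusted p = 0.0107) and had 0.56 in sham dogs (adjusted p = 0.592). PTGES, a prostaglandin E synthase, was called in UNX dogs at 1.25 (limma adjusted p = 0.0146) and had 0.90 in sham dogs (adjusted p = 0.0871). The difference of the 2 chamber differences was called for none of these genes by limma.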
